A study of Mus musculus with 11 samples.

Results

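Rag1, Rag2, Dntt and Iftap are 3 genes of antigen receptor gene assembly and a 4th gene, Iftap, that lies beside Rag1 and Rag2 on mouse chromosome 2, whereas Dntt lies on chromosome 19. They were described over 6 purified populations, from blood stem cells to early thymocytes, of C57BL/6J mice. The members were the probe sets annotated to 1 of the 4 gene symbols alone, and where a gene had several, the one with the highest mean over all arrays stood for it. This gave 4 of the 19938 genes measured, through 5 probe sets, since Iftap had 2. Arrays came from haematopoietic stem cells (HSC, 2 arrays), lymphoid-primed multipotent progenitors (LMPP, 2 arrays), common lymphoid progenitors (CLP, 2 arrays), early thymic precursors (ETP, 2 arrays), DN2 thymocytes (double negative 2, 1 array) and DN3 thymocytes (double negative 3, 2 arrays). HSC, LMPP and CLP were purified from bone marrow, and ETP, DN2 and DN3 from thymus. No treatment, transgene or deletion is named for any population. The sources used here do not give the ages of the mice, the sort gates or any pooling of animals.

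Lymphocytes build the genes of their antigen receptors by cutting and rejoining V, D and J segments. The RAG1 and RAG2 proteins form the recombinase: RAG1 binds the recombination signals and makes the cut, and RAG2 is its partner, with a finger that reads a methylated histone. Terminal transferase, the product of Dntt, then adds nucleotides without a template at the open ends before the end-joining machinery closes them. Iftap, also known as NWC, encodes a protein found bound to the intraflagellar transport machinery of cilia, and its transcription unit overlaps Rag2 on the other strand. In mouse lymphocytes Iftap has been described as transcribed under control of the Rag1 promoter, and in other cells from a promoter of its own. B cell precursors in marrow rearrange heavy chain genes, and DN2 and DN3 thymocytes rearrange the genes of the beta, gamma and delta chains of the T cell receptor.

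The values are log2 intensities, in which 1 unit is a doubling of signal. Array medians lay between 6.01 and 6.12 and the 25th percentile of all probe sets between 4.70 and 4.87. No detection calls were used, so where the lower of a pair of levels is near background the fold understates the ratio of transcripts. Precision is limited by the small number of arrays. The labels number the replicates without saying that they came from separate animals, so p-values may measure only technical spread. In sorted bulk samples, fewer cells of a type and less RNA per cell cannot be told apart. For ETP, DN2 and DN3 the free-text description gives bone marrow as the origin, but the tissue label gives thymus, and the tissue label was followed. Marker genes were set against the population names. The 5 HSC markers did not all separate HSC from LMPP: Slamf1 averaged 4.21 in LMPP and 7.54 in HSC and was called, but Hlf (8.95 in LMPP, 8.62 in HSC), Mecom (7.02 and 7.06), Fgd5 (5.98 and 5.90) and Procr (5.69 and 6.12) were not. All 3 LMPP markers (Flt3, Cd34 and Dntt) were higher in LMPP than in HSC, where 2.94% of all genes were called. Dntt is itself a gene described here, so it gives no separate check. All 5 DN3 markers were higher in DN3 than in ETP, where 6.57% of all genes were called. Il2ra, a chain of the interleukin 2 receptor, stood at 11.40 in DN2 and at 11.30 and 11.23 in DN3. It stood at 6.96 and 7.68 in ETP and averaged 4.26 in LMPP. Of 5 ETP markers, Gata3 and Hes1 were higher in ETP than in LMPP (2.31% of all genes called). Kit, Cd44 and Notch1 were not called. The 5 DN2 markers averaged 9.33 in DN2 against 7.81 and 7.77 in ETP, with Kit at 9.24 against 9.50 and 9.23. In DN3 the same 5 averaged 9.19 and 9.14, close to DN2, with Kit at 7.20 and 6.84. Of 4 CLP markers, 3 were higher in CLP than in LMPP (1.14% of all genes called). Il7r, the interleukin 7 receptor, stood at 10.75 and 10.66 in CLP, and Flt3, a cytokine receptor of early progenitors, at 10.48 and 10.75 in LMPP and at a mean of 10.58 in CLP.

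The promoters of the 4 genes are shown because 3 of them lie at 1 locus and the levels of the genes moved together at several steps. The sequences are RefSeq's on GRCm38.p6, from 250 bases before the annotated start to 50 from it, read 5′ to 3′ on the gene's own strand. Capitals mark matches, on either strand, to the motifs of E proteins (CANNTG), Runx factors (TGTGGT), Ikaros (TGGGAA), the factor family named GATA (spelled GATAA), the factor NF-Y (CCAAT), the factor PU.1 (GAGGAA), and Tcf and Lef factors (CTTTGA). The forkhead motif, spelled GTAAACA, and the TATA box, searched for as the letters TATAAA, were in none of the 4 windows.
Rag1, chr2:101649483-101649782, minus strand: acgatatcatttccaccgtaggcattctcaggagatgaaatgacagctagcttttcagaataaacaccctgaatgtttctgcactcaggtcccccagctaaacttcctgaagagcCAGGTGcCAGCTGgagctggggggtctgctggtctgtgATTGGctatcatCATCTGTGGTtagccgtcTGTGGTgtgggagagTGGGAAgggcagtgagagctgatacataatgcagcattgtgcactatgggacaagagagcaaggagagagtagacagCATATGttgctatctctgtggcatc
Rag2, chr2:101624462-101624761, plus strand: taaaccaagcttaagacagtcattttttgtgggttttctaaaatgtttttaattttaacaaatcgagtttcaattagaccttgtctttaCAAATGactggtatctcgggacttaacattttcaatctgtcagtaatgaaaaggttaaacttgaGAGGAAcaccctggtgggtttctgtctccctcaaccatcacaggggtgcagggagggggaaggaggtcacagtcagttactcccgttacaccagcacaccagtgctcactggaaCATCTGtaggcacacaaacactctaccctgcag
Iftap, chr2:101628982-101629281, minus strand: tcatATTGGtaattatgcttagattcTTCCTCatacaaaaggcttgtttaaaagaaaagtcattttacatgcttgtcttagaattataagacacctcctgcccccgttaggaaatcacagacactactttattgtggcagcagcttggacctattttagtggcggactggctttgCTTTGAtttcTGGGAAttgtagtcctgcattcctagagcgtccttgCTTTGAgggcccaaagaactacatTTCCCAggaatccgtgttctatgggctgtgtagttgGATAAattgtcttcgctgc
Dntt, chr19:41029025-41029324, plus strand: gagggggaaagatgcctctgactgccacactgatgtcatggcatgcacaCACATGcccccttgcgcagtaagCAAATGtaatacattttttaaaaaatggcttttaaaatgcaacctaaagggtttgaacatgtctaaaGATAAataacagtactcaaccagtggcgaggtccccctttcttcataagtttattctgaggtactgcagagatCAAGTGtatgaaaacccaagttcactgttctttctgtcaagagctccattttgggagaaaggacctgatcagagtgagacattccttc

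The Rag1 window held 4 E protein motifs (E boxes), at -135, -128, -85 and 25 from the start base, and 2 Runx matches, at -81 and -67, the first of which overlaps the E box at -85. It also held an Ikaros match at -52 and a reverse NF-Y match at -97. The Rag2 window held 2 E boxes, at -161 and 17, and a PU.1 match at -97. The Dntt window held 3 E boxes, at -201, -178 and -38, and a GATA match at -111. The window of the upstream Iftap start held no E box, 2 Ikaros matches, at -65 and -5, and 2 Tcf and Lef matches, at -75 and -29, with a GATA match at 31 and reverse NF-Y and PU.1 matches at -246 and -224. A further annotated Iftap start, with its window at chr2:101620997-101621296, had 6 E boxes. Of 32851 promoter windows of this length, 72.31% held at least 1 E box, so E boxes are common in such windows. A Runx match was present in 16.76% of them. Windows with 2 or more matches made up 39.64% for the E box, 3.79% for Ikaros, 1.81% for Runx and 1.73% for Tcf and Lef. Ikaros matches were present in 25.56%, GATA in 25.41%, NF-Y in 37.41%, PU.1 in 28.28% and Tcf and Lef in 16.0%, against 3.65% for forkhead and 13.62% for the TATA box. A match is a run of letters in this window and was not measured as a bound site.

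**Figure D1:**
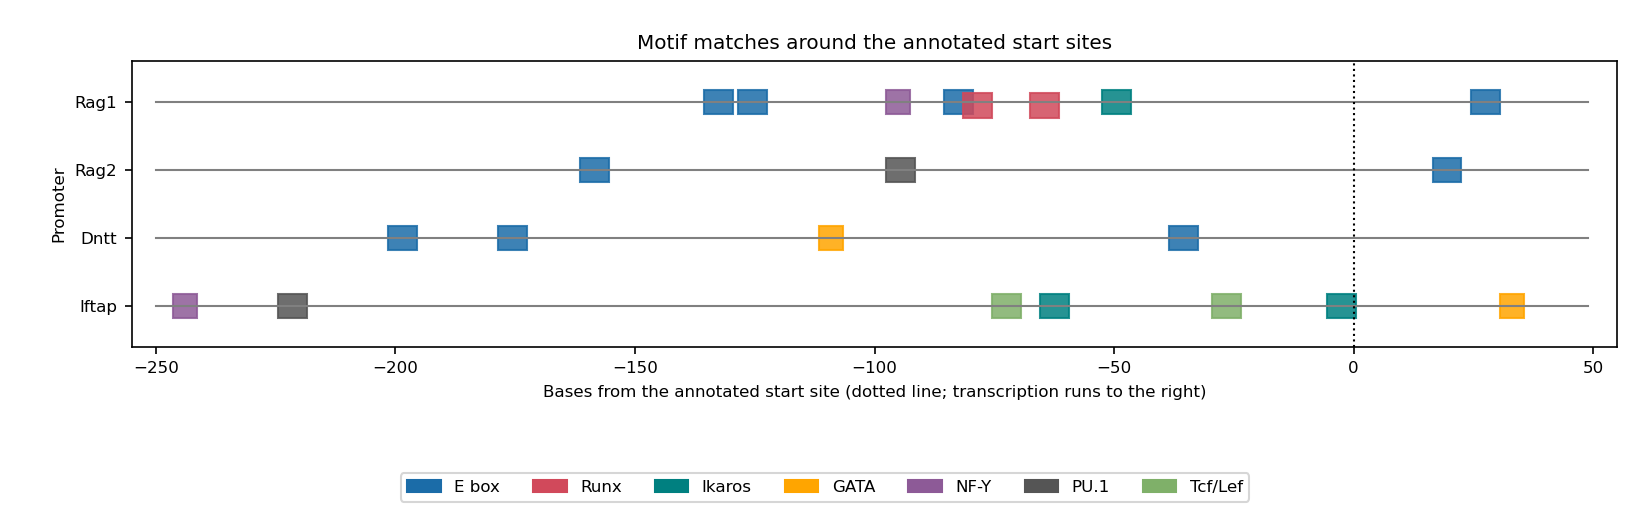
Motif matches in the 4 promoter windows, with the annotated start at 0 on the x axis (bases) and 1 row per promoter. Blocks are matches on either strand; the Rag1 row holds 4 E boxes and 2 Runx matches, and the row of the upstream Iftap start holds no E box.

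Each of the 4 genes differed among the 6 populations. In the limma F test over the populations, 2430 of 19938 genes passed (12.2% of all genes, at Benjamini-Hochberg adjusted p under 0.05). Rag1 ranked 8th of all genes by this test (adjusted p = 5.44e-08), Dntt 24th (2.27e-07), Rag2 32nd (2.62e-07) and Iftap, by the probe set that stands for it, 133rd (4.49e-06).

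Rag1 had 2 high populations, one in marrow and one in thymus. Its log2 intensity was 5.84 and 6.11 on the HSC arrays, 7.35 and 7.43 in LMPP, 10.85 and 11.10 in CLP, 6.85 and 7.25 in ETP, 8.21 in DN2, and 11.45 and 11.63 in DN3. The CLP and DN3 arrays stood well above every other array, and the ETP arrays stood below both LMPP arrays. By means the order was DN3 (11.54 ± 0.13), CLP (10.98 ± 0.17), DN2 (8.21), LMPP (7.39 ± 0.054), ETP (7.05 ± 0.28) and HSC (5.97 ± 0.19; SD, n = 2 each and 1 for DN2). Between neighbours in this order, CLP exceeded DN2 by 2.76 (limma adjusted p = 3.1e-05) and ETP exceeded HSC by 1.08 (adjusted p = 0.0028). DN3 and CLP (0.56 apart, adjusted p = 0.0623), DN2 and LMPP (0.82, adjusted p = 0.0575) and LMPP and ETP (0.34, adjusted p = 0.409) did not differ beyond the threshold. Of all genes, 2.76% were called between DN2 and CLP and 5.13% between ETP and HSC.

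Rag2 was also highest in CLP and DN3 and lowest in HSC. Its log2 intensity was 4.71 and 4.86 in HSC, 7.84 and 7.59 in LMPP, 9.00 and 9.18 in CLP, 7.14 and 7.53 in ETP, 7.86 in DN2, and 9.09 and 9.08 in DN3. The HSC arrays were the lowest by a wide gap, and the CLP and DN3 values overlapped. The order of means was CLP (9.09 ± 0.13), DN3 (9.08 ± 0.009), DN2 (7.86), LMPP (7.72 ± 0.18), ETP (7.33 ± 0.27) and HSC (4.79 ± 0.11; SD, n = 2 each and 1 for DN2). Of the neighbours in it, DN3 exceeded DN2 by 1.22 (limma adjusted p = 0.0070) and ETP exceeded HSC by 2.55 (adjusted p = 6.1e-06). CLP and DN3 (adjusted p = 0.991), DN2 and LMPP (0.840), and LMPP and ETP (0.299) did not pass.

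Dntt was high in every population after HSC. Its log2 intensity was 8.32 and 7.88 in HSC, 12.00 and 11.98 in LMPP, 12.47 and 12.53 in CLP, 11.66 and 11.88 in ETP, 11.49 in DN2, and 12.06 and 12.16 in DN3. Apart from the step up from HSC, its means spanned little more than 1 unit, and they ran CLP (12.50 ± 0.044), DN3 (12.11 ± 0.073), LMPP (11.99 ± 0.018), ETP (11.77 ± 0.16), DN2 (11.49) and HSC (8.10 ± 0.31; SD, n = 2 each and 1 for DN2). Among neighbours in this order, only DN2 against HSC passed, by 3.39 (limma adjusted p = 4.98e-06, in a comparison that called 3.99% of all genes), and the adjusted p of the others ran between 0.169 and 0.977.

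The 2 Iftap probe sets gave different patterns. The one that stands for the gene by the rule is annotated to 1 transcript record alone, and the other to 7 records, of which 1 is the same. The RefSeq records of the gene are among the 7 and belong only to that other probe set. The rule took the first for its higher mean over all arrays (9.04 against 8.46), so results given for Iftap alone are those of the 1-transcript probe set. The 1-transcript probe set read 4.38 and 5.51 in HSC, 9.75 and 9.31 in LMPP, 10.85 and 10.78 in CLP, 8.84 and 9.40 in ETP, 9.48 in DN2, and 10.47 and 10.68 in DN3. It was lowest in HSC, intermediate in LMPP, ETP and DN2, and highest in CLP and DN3, as Rag2 was. The 7-transcript probe set read 9.26 and 9.33 in HSC, 9.23 and 9.18 in LMPP, 8.05 and 7.80 in CLP, 7.89 and 8.42 in ETP, 7.50 in DN2, and 8.21 and 8.16 in DN3. All 4 HSC and LMPP values of this probe set lay above every value of the later populations.

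**Figure D2:**
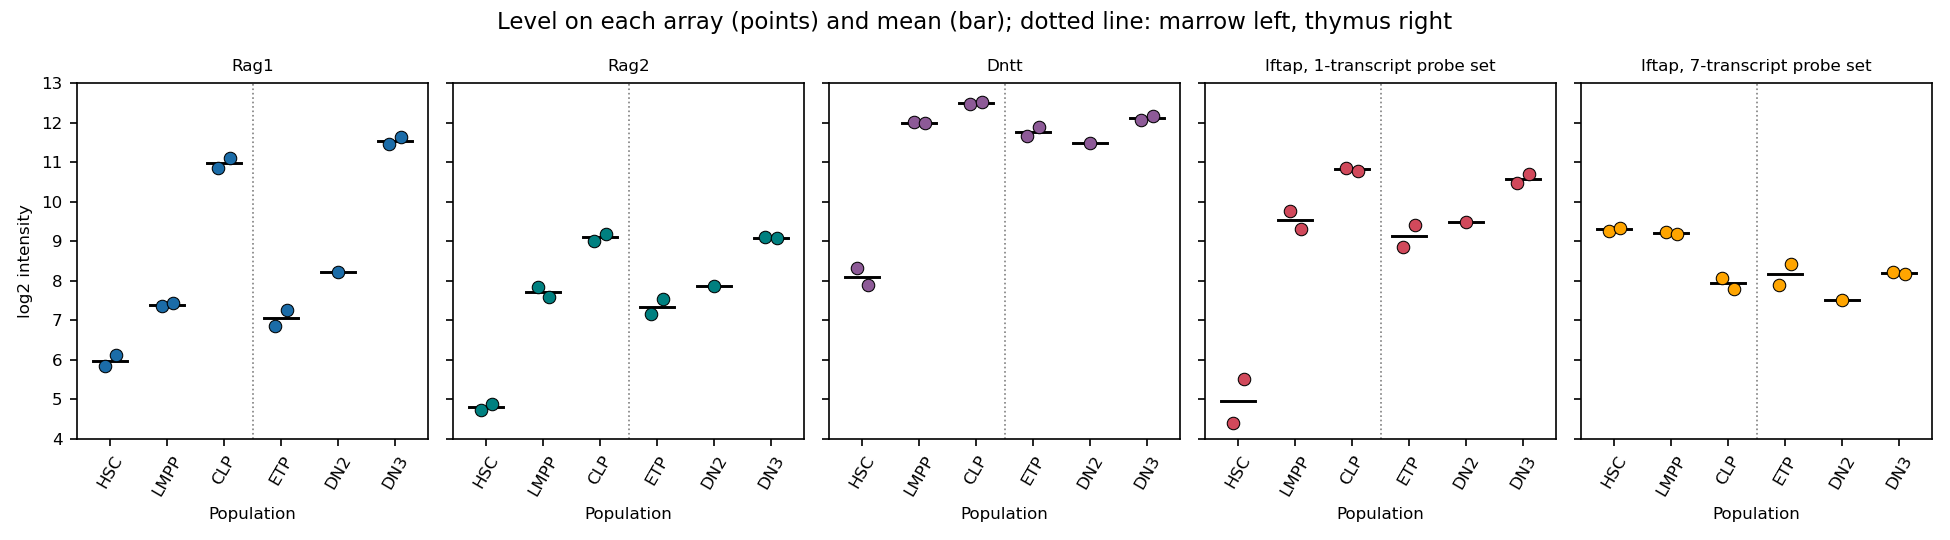
Log2 intensity (y axis) of each probe set on each of the 11 arrays (points) by population (x axis), with the group mean as a bar; DN2 is 1 array. Rag1 is high in CLP and DN3, Dntt in every population after HSC, and the 7-transcript Iftap probe set is highest in HSC and LMPP.

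For the 1-transcript probe set the order of means was CLP (10.82 ± 0.050), DN3 (10.58 ± 0.15), LMPP (9.53 ± 0.31), DN2 (9.48), ETP (9.12 ± 0.40) and HSC (4.95 ± 0.80; SD, n = 2 each and 1 for DN2). Here ETP exceeded HSC by 4.17 (limma adjusted p = 2.8e-05), and no other pair of neighbours passed. For the 7-transcript probe set the order was HSC (9.30 ± 0.053), LMPP (9.21 ± 0.033), DN3 (8.18 ± 0.036), ETP (8.16 ± 0.37), CLP (7.93 ± 0.18) and DN2 (7.50). LMPP exceeded DN3 in it by 1.02 (adjusted p = 0.0034, in a fit of all 21789 probe sets with 1 symbol, of which 9.47% were called), and the other neighbours did not pass. The 2 HSC readings of the 1-transcript probe set, 4.38 and 5.51, were the most unlike of any pair of replicates among the 5 probe sets.

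At the first step in marrow all 4 genes were higher in LMPP than in HSC, against 1.23% of all genes called higher and 2.94% called in either direction in this comparison. Dntt averaged 11.99 ± 0.018 in LMPP and 8.10 ± 0.31 in HSC (SD, n = 2 each), 14.8-fold apart (log2 3.89, 95% interval 3.56 to 4.22, limma adjusted p = 7.9e-07). Iftap was 24.0-fold higher in LMPP (log2 4.59, interval 3.89 to 5.28, adjusted p = 2.41e-05) and Rag2 7.62-fold higher (log2 2.93, interval 2.59 to 3.27, adjusted p = 3.23e-06). Rag1 was 2.67-fold higher (log2 1.42, interval 1.06 to 1.78, adjusted p = 9.71e-04). In each of these genes both LMPP arrays exceeded both HSC arrays. With the 7-transcript Iftap probe set LMPP and HSC differed by -0.09 (interval -0.46 to 0.28, adjusted p = 0.868). Intensities of different probe sets are not calibrated to each other, and differences in fold between genes were not tested.

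At the next step in marrow Rag1 and Rag2 were higher in CLP than in LMPP, where 1.14% of all genes were called and 0.602% were called higher. Rag1 averaged 10.98 ± 0.17 in CLP and 7.39 ± 0.054 in LMPP, 12.0-fold higher (log2 3.59, interval 3.22 to 3.95, limma adjusted p = 7.21e-06). Rag2 was 2.59-fold higher (log2 1.37, interval 1.03 to 1.71, adjusted p = 0.00153). Iftap had 10.85 and 10.78 in CLP against 9.75 and 9.31 in LMPP, a log2 difference of 1.29 (interval 0.59 to 1.98) that missed the threshold (adjusted p = 0.108), though it passed when either HSC array was left out (adjusted p = 0.0172). Dntt differed by 0.51 (interval 0.18 to 0.84, adjusted p = 0.232). The 7-transcript Iftap probe set was 2.43-fold lower in CLP (log2 -1.28, interval -1.65 to -0.91, adjusted p = 0.0054), where 1.01% of all probe sets were called.

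Against CLP, all 4 genes were lower in ETP, where 2.52% of all genes were called and 1.1% were called lower. Rag1 averaged 7.05 ± 0.28 in ETP and 10.98 ± 0.17 in CLP, 15.2-fold lower (log2 -3.92, interval -4.28 to -3.56, limma adjusted p = 9.4e-07). Rag2 was 3.38-fold lower (log2 -1.76, interval -2.10 to -1.42, adjusted p = 1.25e-04). Iftap was 3.25-fold lower (log2 -1.70, interval -2.40 to -1.01, adjusted p = 0.0174) and Dntt 1.66-fold lower (log2 -0.73, interval -1.06 to -0.40, adjusted p = 0.0311). The call for Iftap was lost without CLP replicate 1 (adjusted p = 0.105), CLP replicate 2 (0.0825) or ETP replicate 1 (0.150). The call for Dntt was lost without either array of LMPP (0.0506), CLP (0.118 and 0.136), ETP (0.205 and 0.0816) or DN3 (0.0618). The 7-transcript probe set of Iftap differed by 0.23 (adjusted p = 0.719).

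Set against LMPP, 0 of the 4 genes were called in ETP, in a comparison that called 2.31% of all genes. Each of the 4 means was lower in ETP, by 0.34 for Rag1 (interval of the difference -0.70 to 0.024), 0.38 for Rag2 (-0.72 to -0.043), 0.41 for Iftap (-1.11 to 0.28) and 0.22 for Dntt (-0.55 to 0.11), with limma adjusted p between 0.299 and 0.644. The intervals exclude a 4-fold difference in any of the 4 genes. At unadjusted p under 0.05 the Rag2 difference passed, as its interval shows. By the 7-transcript probe set Iftap was 2.07-fold lower in ETP (log2 -1.05, interval -1.42 to -0.68, adjusted p = 0.00986, against 2.05% of probe sets called). That call was lost without LMPP replicate 1 (adjusted p = 0.0689) or LMPP replicate 2 (0.0575).

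**Figure D3:**
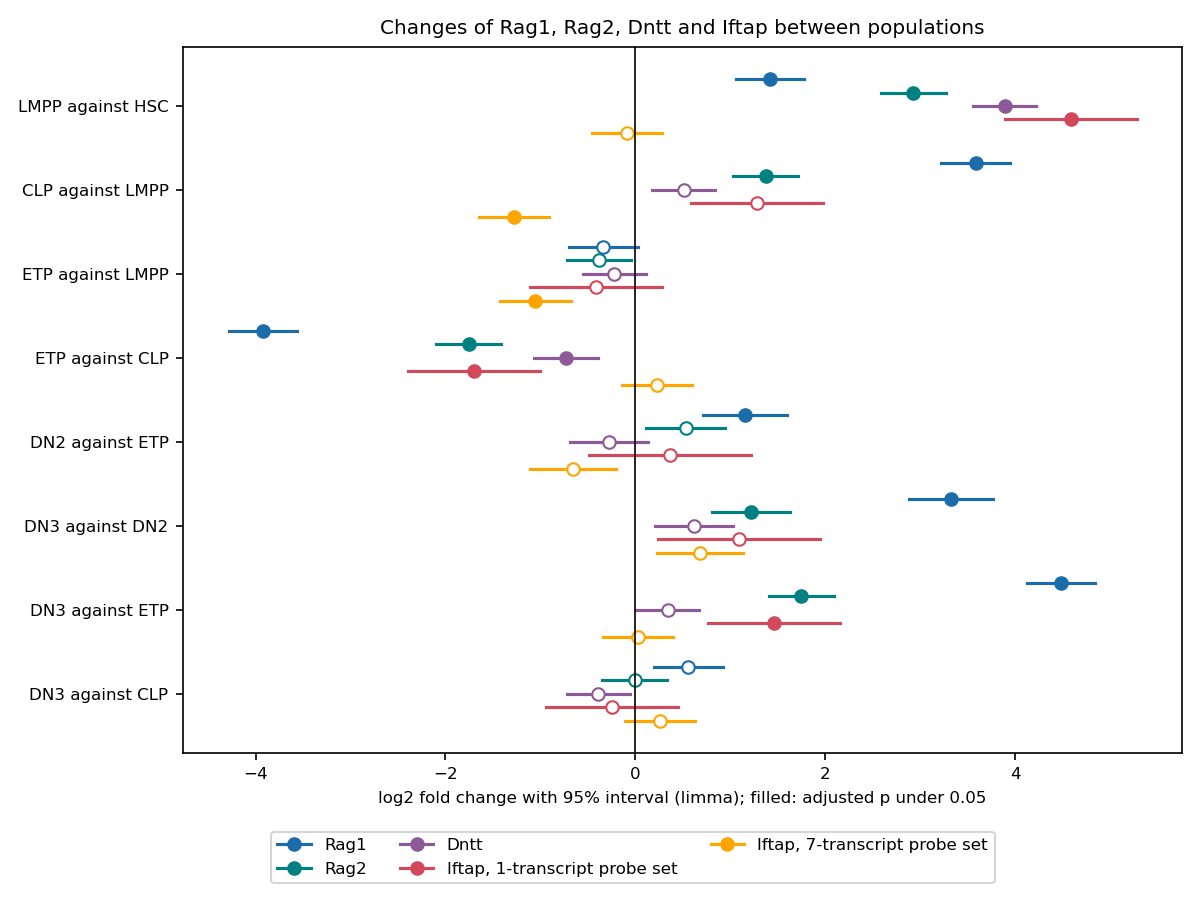
Log2 fold changes (x axis) with 95% intervals from limma for 8 comparisons (rows, first-named population over the second), coloured by probe set; filled points have adjusted p under 0.05. Rag1 changes most in DN3 against ETP (4.48), ETP against CLP (-3.92) and CLP against LMPP (3.59), and Rag2, Dntt and Iftap by its 1-transcript probe set in LMPP against HSC.

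Within the thymus Rag1 stood higher on the single DN2 array than in ETP, and higher again in DN3, with both calls resting on a spread taken from the other populations. It stood at 8.21 on the DN2 array against 6.85 and 7.25 in ETP, 2.23-fold higher (log2 1.16, interval 0.72 to 1.60, limma adjusted p = 0.0222), where 0.998% of all genes were called. Without ETP replicate 1 this was 0.96 (adjusted p = 0.109). In DN3 it stood at 11.45 and 11.63 against 8.21 in DN2, 10.0-fold higher (log2 3.33, interval 2.88 to 3.77, adjusted p = 1.22e-05), where 1.8% were called. DN2 is a single array, and the fit takes it to vary like the other populations. In fits of the compared groups alone, with fewer arrays, neither difference passed (adjusted p = 0.719 for DN2 against ETP and 0.164 for DN3 against DN2).

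Rag2 differed by 0.53 between DN2 and ETP (interval 0.11 to 0.95, limma adjusted p = 0.432) and was 2.33-fold higher in DN3 than in DN2 (log2 1.22, interval 0.80 to 1.63, adjusted p = 0.0070), a call lost without DN3 replicate 1 (adjusted p = 0.0523) or DN3 replicate 2 (0.0517). Iftap differed by 0.37 between DN2 and ETP (adjusted p = 1) and by 1.09 between DN3 and DN2 (adjusted p = 0.350). Dntt differed by -0.28 between DN2 and ETP (interval -0.69 to 0.13) and by 0.62 between DN3 and DN2 (interval 0.21 to 1.03, adjusted p = 0.203). Over the same steps the 7-transcript Iftap probe set differed by -0.65 (adjusted p = 0.343) and 0.68 (adjusted p = 0.223).

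Over the whole thymic path, with replicated arrays at both ends, Rag1, Rag2 and Iftap were higher in DN3 than in ETP, where 6.57% of all genes were called and 2.68% were called higher. Rag1 averaged 11.54 ± 0.13 in DN3 and 7.05 ± 0.28 in ETP, 22.4-fold higher (log2 4.48, interval 4.12 to 4.84, limma adjusted p = 1.1e-07). Rag2 was 3.36-fold higher (log2 1.75, interval 1.41 to 2.09, adjusted p = 4.07e-05) and Iftap 2.75-fold higher (log2 1.46, interval 0.77 to 2.16, adjusted p = 0.0176). For Iftap the call was lost without ETP replicate 1 (adjusted p = 0.170), DN3 replicate 1 (0.0780) or DN3 replicate 2 (0.147). Dntt, at 12.06 and 12.16 in DN3 against 11.66 and 11.88 in ETP, differed by 0.34 (interval 0.0080 to 0.67, adjusted p = 0.297). For Iftap by its 7-transcript probe set DN3 and ETP differed by 0.03 (interval -0.34 to 0.40, adjusted p = 0.985).

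Between DN3 and CLP, the high populations of thymus and marrow, 0 of the 4 genes were called, while 8.69% of all genes were. Rag1 differed by 0.56 (interval 0.20 to 0.92, limma adjusted p = 0.0623, 0.0473 without either ETP array, 0.0386 with array weights and 0.0193 with the replicate block), both DN3 arrays lying above both CLP arrays. Rag2 differed by -0.01 (interval -0.35 to 0.33), Iftap by -0.24 (interval -0.94 to 0.46) and Dntt by -0.39 (interval -0.72 to -0.054, adjusted p = 0.169). At unadjusted p under 0.05 Rag1 and Dntt passed, in opposite directions.

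Whether the thymic step (DN3 minus ETP) differed in size from the marrow step (CLP minus LMPP) was tested directly, in a contrast that called 3.74% of all genes. Rag1 changed by 4.48 over the thymic step and by 3.59 over the marrow step, a difference of 0.90 (interval 0.39 to 1.41, limma adjusted p = 0.0651). Without ETP replicate 2 it was 1.10 and passed (adjusted p = 0.0393). For Rag2 the difference was 0.38 (adjusted p = 0.549), for Iftap 0.17 (adjusted p = 0.941) and for Dntt -0.17 (adjusted p = 0.852). The 7-transcript Iftap probe set had a difference of 1.31 (interval 0.79 to 1.83, adjusted p = 0.0124), with 3.38% of probe sets called, and lost the call without DN3 replicate 1 (1.28, adjusted p = 0.0603) or DN3 replicate 2 (1.33, adjusted p = 0.0543).

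Across the 11 arrays, which include replicates of the same populations, Rag2 and Iftap ran closest together (Pearson r 0.980), followed by Iftap and Dntt (0.966) and Rag2 and Dntt (0.935). Rag1 correlated with Rag2 at 0.877, with Iftap at 0.781 and with Dntt at 0.663. Without the HSC arrays, a choice made after the values had been seen, r over the other 9 arrays was 0.982 for Rag1 and Rag2, 0.980 for Rag2 and Iftap, 0.940 for Rag1 and Iftap, 0.842 for Iftap and Dntt, 0.773 for Rag2 and Dntt, and 0.699 for Rag1 and Dntt. The 7-transcript Iftap probe set had negative r with every other one, from -0.595 with Rag1 to -0.653 with Rag2, and without the HSC arrays its r lay between -0.378 with Rag1 and 0.069 with Dntt.

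The split between the Iftap probe sets was tested as the 1-transcript minus the 7-transcript value on each array, a test added after the values had been seen, beside the same difference for all 999 genes that had several probe sets. The difference was higher by 4.68 in LMPP than in HSC (95% interval 3.83 to 5.52, limma adjusted p = 0.0058), where 0.3% of the 999 genes were called. Without LMPP replicate 1 it was 4.48 and did not pass (adjusted p = 0.0863). Against HSC it was higher by 7.24 in CLP (adjusted p = 9.42e-04), 5.31 in ETP (0.0056), 6.33 in DN2 (0.0066) and 6.75 in DN3 (0.00142), where 0.601%, 0.501%, 0.4% and 0.701% of the 999 were called. In each of these 5 comparisons Iftap had the largest such difference of all 999 genes. Between CLP and LMPP it was 2.57 (interval 1.72 to 3.41, adjusted p = 0.0738, and 0.0256 without either HSC array), and between ETP and CLP -1.93 (adjusted p = 0.242, and 0.0495 without either HSC array). The positions of the probes and the transcripts behind the records were not analysed here.

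The Iftap and Rag2 spans overlap in the RefSeq annotation and run on opposite strands, while Rag1 lies clear of both on the same strand as Iftap. The 3 nearest measured genes on each side of this locus were 2810002D19Rik, Api5, Lrrc4c, Traf6, Prr5l and Commd9. In each of the 8 comparisons between populations 0 of these 6 were called (1 higher in DN3 against CLP without either LMPP array), and their median change lay between -0.12 and 0.17, beside all-gene medians between -0.03 and 0.03. Around Dntt the neighbours were Ccnj, Zfp518a, Blnk, Opalin, Tll2 and Tm9sf3. Of these only Blnk, an adaptor of the B cell receptor, was called in the 8 comparisons with all arrays. Without either CLP array 1 neighbour was higher in LMPP than in HSC, and without CLP replicate 1 a neighbour was higher in ETP than in CLP and in DN3 than in CLP. Blnk read 8.59 and 9.12 in CLP against 5.29 and 5.60 in LMPP (10.6-fold higher, limma adjusted p = 1.67e-05), and it was 15.2-fold lower in ETP than in CLP (adjusted p = 2.7e-06) and 15.8-fold lower in DN3 than in CLP (adjusted p = 3.67e-07).

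Of the partners that hold, repair and join the cut ends, 17 of 19 listed were measured. In LMPP against HSC 2 were higher and 0 lower (11.8% of the list, beside 2.94% of all genes called), and in CLP against LMPP 1 was higher and 0 lower (5.88%, beside 1.14%). In ETP against CLP 0 were called (beside 2.52%), and in DN3 against ETP 2 were higher and 0 lower (11.8%, beside 6.57%). Their median changes were 0.04, -0.09, 0.15 and 0.06 in these comparisons, beside 0.03, -0.02, -0.01 and -0.003 for all genes. The largest mover was Lig4, the ligase that seals the joint, with 9.89 and 9.93 in DN3, 9.10 in DN2 and 7.43 and 7.53 in ETP. It was 3.07-fold higher in DN2 than in ETP (limma adjusted p = 0.00183), 5.37-fold higher in DN3 than in ETP (adjusted p = 2.55e-06) and 4.90-fold higher in DN3 than in CLP (adjusted p = 3.42e-06). All 3 thymic readings of Lig4 from DN2 onward exceeded every reading of the earlier populations.

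Xrcc6, which encodes the Ku70 end-binding subunit, read 9.40 and 9.73 in LMPP against 8.87 and 8.79 in HSC (1.67-fold higher, limma adjusted p = 0.015), and 10.37 and 10.44 in CLP (1.79-fold over LMPP, adjusted p = 0.0141). Xrcc4, the scaffold of the ligase, was 1.56-fold higher in LMPP than in HSC (adjusted p = 0.0214). In DN3 against CLP 4 of the 17 were higher (23.5%, beside 8.69% of all genes called), with Xrcc5, the Ku80 subunit, at 9.85 and 10.02 in DN3 against 8.90 and 8.74 in CLP (2.17-fold, adjusted p = 0.00561). The small counts moved with single arrays: that of LMPP against HSC was 0 without HSC replicate 1 or LMPP replicate 2 and 1 without HSC replicate 2, that of CLP against LMPP was 0 without either CLP array or LMPP replicate 1, that of DN3 against CLP was 2 without either DN3 array, and that of DN3 against ETP was 1 without either CLP array, either DN3 array or ETP replicate 1. In DN2 against ETP Lig4 was the single gene called, and the count stayed at 1 without each other array.

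The relatives of Dntt among the X family polymerases, Polm, Poll and Polb, which fill gaps in end joining or base repair, were measured too, and 0 of these 3 were called in any of the 8 comparisons. Polb, for one, read 8.44 and 8.47 in LMPP against 8.70 and 8.84 in HSC, and 8.93 and 9.13 in DN3 against 8.65 and 9.12 in ETP. Of 9 genes of RAG protein turnover or association, 0 were called at any step up to ETP or between DN2 and its neighbours. Kpna2, an importin, was 1.55-fold higher in DN3 than in CLP (limma adjusted p = 0.0325), and Ccna2, cyclin A2, 1.48-fold higher in DN3 than in ETP (adjusted p = 0.0388). The Kpna2 count was 0 without CLP replicate 1 or either DN3 array, and the Ccna2 count was 0 without either CLP array, either DN3 array or ETP replicate 1.

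Genes of transcription factors known to act on Rag1, Rag2 or Dntt were measured for 31 of 32 listed. In LMPP against HSC 4 were higher and 1 lower (16.1% of the list called, beside 2.94% of all genes; median change of the list 0.11, all genes 0.03). Satb1, a chromatin organiser, had 10.81 and 10.93 in LMPP against 8.99 and 8.34 in HSC (4.59-fold, limma adjusted p = 1.15e-04). Tcf4, the E protein E2-2, was 1.84-fold higher (adjusted p = 0.00471) and Gfi1b, a repressor, 1.86-fold lower (adjusted p = 0.0134). The count of 4 was 2 without HSC replicate 2, LMPP replicate 1 or either DN3 array, and that of 1 was 0 without HSC replicate 1 or either LMPP array and 2 without HSC replicate 2.

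In CLP against LMPP 3 regulators were higher and 0 lower (9.68% of the list called, beside 1.14% of all genes; median 0.07, all genes -0.02). Ebf1, a factor of B lineage specification, had 9.32 and 9.22 in CLP against 5.43 and 4.74 in LMPP (18.2-fold, limma adjusted p = 1.67e-05), and Foxo1, a forkhead activator of the Rag genes, had 7.44 and 7.42 against 6.85 and 6.82 (1.52-fold, adjusted p = 0.0322). The third was Id2, an inhibitor of E proteins (1.87-fold, adjusted p = 0.048). The count of 3 was 1 without CLP replicate 2 or any single array of DN3, ETP or LMPP.

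In ETP against CLP 2 regulators were higher and 6 lower (25.8% called, beside 2.52% of all genes; median -0.07, all genes -0.01). Ebf1 was 30.3-fold lower (limma adjusted p = 2.08e-06), Tcf4 2.14-fold lower (adjusted p = 0.00102), Foxp1 2.06-fold lower (adjusted p = 0.00124) and Foxo1 1.81-fold lower (adjusted p = 0.00197). Gata3, a T lineage factor, was 3.31-fold higher (adjusted p = 0.00144). Id2 was the other higher gene, with 7.46 and 7.82 in ETP against 6.47 and 7.01 in CLP. The count of 2 was 1 without CLP replicate 1 or any single array of DN3 or ETP, and the count of 6 did not move by over 1.5 times without any array.

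In DN3 against ETP 8 regulators were higher and 4 lower (38.7% called, beside 6.57% of all genes; median 0.16, all genes -0.003). Lef1, a partner of beta-catenin, had 9.31 and 9.57 in DN3 against 6.25 and 6.11 in ETP (9.60-fold, limma adjusted p = 2.94e-07). Ets1 had 9.29 and 9.37 against 6.95 and 6.91 (5.29-fold, adjusted p = 3.78e-06) and Tcf12, the E protein HEB, 10.04 and 10.15 against 8.25 and 8.59 (3.20-fold, adjusted p = 8.38e-05). Spi1, which encodes PU.1, had 5.83 and 5.83 in DN3 against 7.40 and 7.80 in ETP (3.42-fold lower, adjusted p = 1.8e-04), and Bcl11a was 5.35-fold lower (adjusted p = 5.38e-05). Ebf1 differed by -0.02 and Foxo1 by 0.21 in DN3 against ETP.

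In DN2 against ETP only Id2 of the 31 was called (3.23%, beside 0.998% of all genes), 2.40-fold lower (limma adjusted p = 0.0261; 0 genes called without ETP replicate 2 or either DN3 array). In DN3 against DN2 (16.1% of the list called, beside 1.8% of all genes) 4 regulators were higher, led by Lef1 (7.20-fold, adjusted p = 1.35e-05) and Ets1 (3.04-fold, adjusted p = 0.00128), and Bcl11a was lower (0 genes lower without either DN3 array, 2 without either HSC array). In ETP against LMPP 2 were higher and 2 lower (12.9%, beside 2.31% of all genes), with Id2 3.49-fold higher (adjusted p = 4.97e-04) and Tcf4 2.04-fold lower (adjusted p = 0.00204). Each of these last 2 counts was 1 without either array of LMPP, and the higher also without ETP replicate 1, the lower also without any single array of ETP or DN3. In DN3 against CLP, where the 4 genes themselves were not called, 9 regulators were higher and 9 lower (58.1%, beside 8.69% of all genes).

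**Figure D4:**
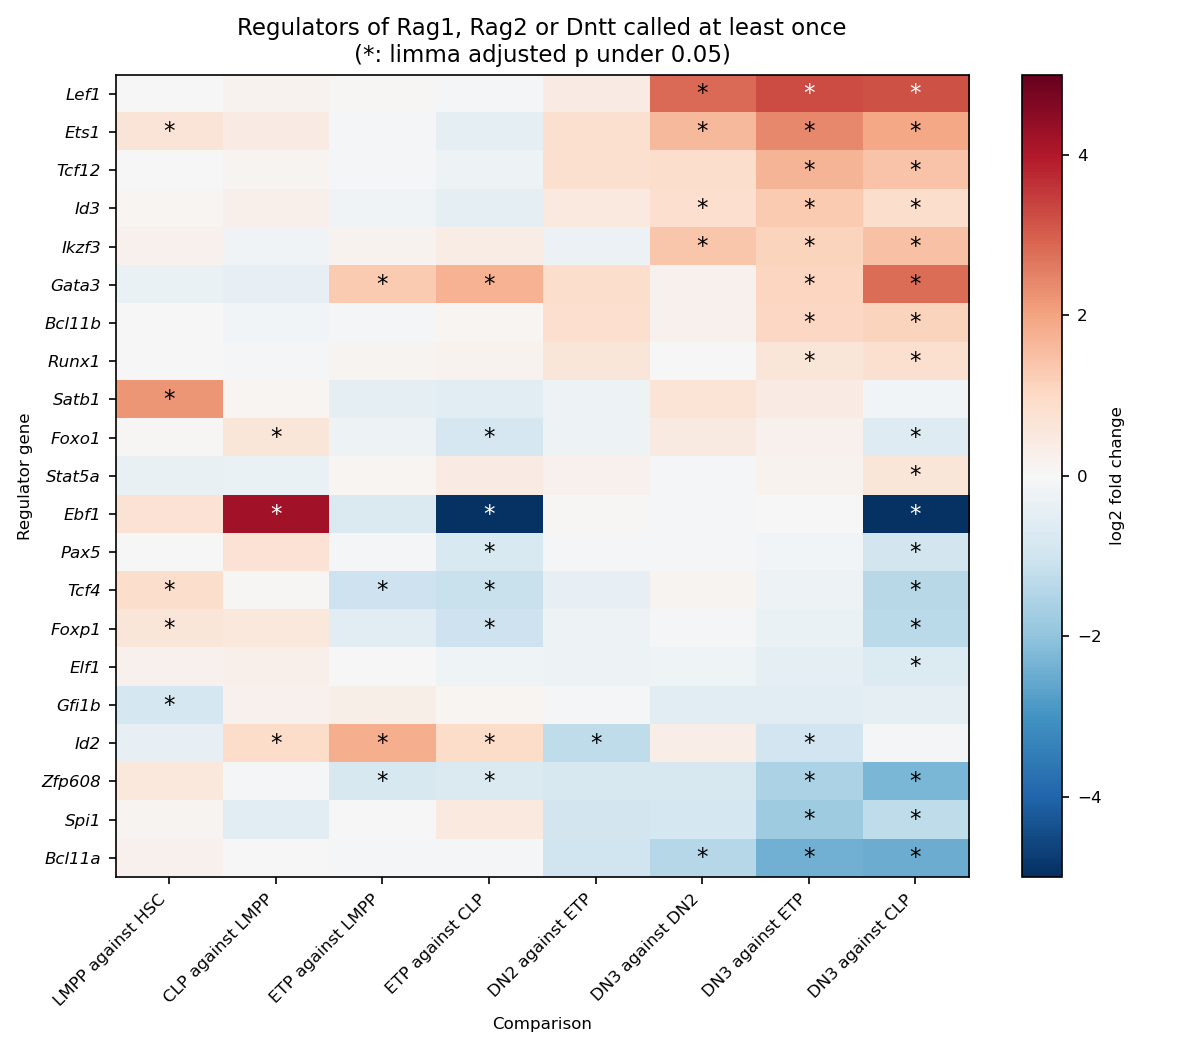
Log2 fold change (colour scale) of the 21 regulator genes called in at least 1 of 8 comparisons (columns, first-named population over the second), with an asterisk at limma adjusted p under 0.05. Ebf1 stands out in CLP, and Lef1, Ets1 and Tcf12 in DN3.

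Partners of the first receptor chains were read beside the recombinase, since their proteins meet the product of a completed rearrangement. Of 10 measured, 4 were higher in CLP than in LMPP and 0 lower (beside 1.14% of all genes called; median 0.75, all genes -0.02). They were Igll1, Vpreb3, Vpreb2 and Cd79b. Igll1 had 8.28 and 7.47 in CLP against 6.18 and 6.09 in LMPP (3.34-fold, limma adjusted p = 0.00455). Vpreb3 was 3.34-fold higher in CLP (adjusted p = 9.53e-04). The count was 2 without LMPP replicate 2. In DN3 against ETP 4 others were higher and 0 lower (beside 6.57% of all genes called; median 0.38, all genes -0.003). Cd3d had 12.07 and 12.04 in DN3 against 5.51 and 6.80 in ETP (59.9-fold, adjusted p = 8.24e-07), and Ptcra, the pre-T alpha chain, 8.01 and 7.76 against 6.38 and 6.23 (3.00-fold, adjusted p = 1.33e-04). Cd3g, another CD3 chain, was already 12.5-fold higher in DN2 than in ETP (11.21 against 6.68 and 8.45, adjusted p = 0.00569).

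Genes of the intraflagellar transport machinery, to which the Iftap protein has been found bound, had called shares near those of all genes at the steps where Iftap was called. Of 23 measured, 1 was higher in LMPP than in HSC (4.35% of the list, beside 2.94% of all genes), 0 were called in ETP against CLP (beside 2.52%), and 2 were higher in DN3 than in ETP (8.7%, beside 6.57%). In CLP against LMPP and at both steps around DN2 0 were called. Ift81 was the 1 gene lower in ETP than in LMPP (1.99-fold, limma adjusted p = 0.0162; 0 without ETP replicate 1 or either LMPP array). In DN3 against CLP 2 were higher and 2 lower (17.4%, beside 8.69%), with 3 higher without CLP replicate 2, 3 of each without either ETP array, 1 lower without CLP replicate 1 or DN3 replicate 2, and 1 higher and 0 lower without DN3 replicate 1. Ift81 had 7.96 and 7.83 in LMPP against 6.86 and 6.67 in HSC (2.18-fold, adjusted p = 0.00649), a call lost without LMPP replicate 1. Ift80 had 9.24 and 9.27 in DN3 against 7.23 and 7.53 in ETP (3.67-fold, adjusted p = 5.19e-04). The count of 2 in DN3 against ETP was 1 without DN3 replicate 2 or either ETP array. Without either DN3 array 1 gene was lower in ETP than in CLP, without either CLP array 1 was lower in DN3 than in ETP, and without either HSC array 1 was higher in DN2 than in ETP.

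Markers of other cell types moved with some of these steps. Of all genes, 2.94% were called in LMPP against HSC, 1.14% in CLP against LMPP and 2.52% in ETP against CLP. The shares were 0.998% in DN2 against ETP and 6.57% in DN3 against ETP. Of 9 measured B lineage markers, 5 were higher in CLP than in LMPP, and their mean log2 level was 7.93 and 7.67 in CLP against 6.20 and 6.02 in LMPP, while 7 of 9 were lower in ETP than in CLP. Of 6 plasmacytoid dendritic cell markers, 2 were higher in CLP than in LMPP, with mean levels of 7.70 and 8.10 against 7.23 and 7.26. In ETP against CLP 3 of these 6 were lower, with mean levels of 6.77 and 6.88 in ETP. In LMPP against HSC Ccr9 and Tcf4 of this list were higher, and in DN3 against ETP Ccr9 and Spib, with mean levels of 7.02 and 7.04 in DN3. Between LMPP and CLP, where Rag1 and Rag2 were higher in CLP, the 2 plasmacytoid markers called were Siglech (log2 change 2.20) and Irf8 (1.56). The other plasmacytoid markers were not called there: Bst2 (0.41), Tcf4 (0.07), Ccr9 (-0.10) and Spib (-0.22). The B lineage list shares Ebf1, Blnk, Igll1, Vpreb3 and Cd79b with the genes described above. Of 3 measured markers of double positive and mature T cells, Cd8b1 alone was higher in DN3 than in ETP (6.50 and 6.26 against 5.33 and 5.55). Their mean levels were 5.87 and 5.71 in DN3 and 5.50 and 5.63 in ETP, with Cd4 at 5.49 and 5.27 and Cd8a at 5.62 and 5.61 in DN3. Of 6 myeloid and erythroid markers, 2 were lower in LMPP than in HSC, with mean levels of 7.09 and 6.97 against 8.05 and 8.05. Members of this list were also lower at thymic steps where Rag1 was higher, though fewer at the step from DN2 to DN3. In DN3 against DN2 1 of 6 was lower (beside 1.8% of all genes called). The others were not called, with log2 changes from -0.53 for Lyz2 to 0.30 for Klf1. In DN2 against ETP 3 of 6 were lower, and in DN3 against ETP 4 of 6 were lower, with mean levels of 5.82 and 5.70 in DN3, 6.30 in DN2, and 7.17 and 7.29 in ETP. Mpo, the myeloperoxidase of granulocyte precursors, read 5.78 and 5.68 in DN3 against 10.76 and 10.67 in ETP (31.6-fold lower, limma adjusted p = 3.55e-07), and Lyz2, Elane and Csf1r were 2.69-fold, 2.56-fold and 2.08-fold lower. Elane was also 2.51-fold higher in ETP than in CLP. The part of these cells in the levels of the 4 genes was not tested.

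Other genes shared the patterns over the 6 population means. Among 1570 genes whose means ranged over at least 1 log2 unit, those most like Rag1 were Slc35e3 (Pearson r 0.985), Stambpl1 (0.954), Thrb (0.948), Cd28 (0.947) and Mzb1 (0.932). Cd28, a costimulatory receptor of T cells, averaged 7.54 in CLP and 8.92 in DN3, against 5.36 in HSC. Most like Rag2 were Tapt1 (0.985), Bcl2l11 (0.976), Cxcr4 (0.964), Camsap2 (0.963) and Rab22a (0.945). Bcl2l11 encodes a protein that promotes cell death, and Cxcr4 a chemokine receptor. For the 1-transcript Iftap probe set they were Tapt1 (0.993), Cxcr4 (0.981), Lbh (0.966), Camsap2 (0.964) and Satb1 (0.962), and for Dntt Satb1 (0.979), Lbh (0.978), Tapt1 (0.972), Map4k4 (0.964) and Cxcr4 (0.957). Tapt1 and Cxcr4 stood in 3 of these 4 sets of 5, and none of the genes most like Rag1 stood in another set. The 7-transcript Iftap probe set was most like Pcp4l1 (0.960), Iigp1 (0.951), Csf3r (0.948), Olfr856-ps1 (0.945) and Capg (0.933). With 6 points that share a low HSC value, r near 1 is reached by several genes: 2 exceeded 0.95 for Rag1, 4 for Rag2, 6 for Iftap and 5 for Dntt.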

How the data were processed

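Total RNA was extracted with Trizol and labelled with a biotin whole-transcript kit for Affymetrix arrays, per the labels' protocols, with 1 array per sample. The authors deposited log2 intensities, made by RMA per the submitters' processing notes. Its version, the chip definition and the build are not named in the labels. RMA subtracts a background estimate, equalises the quantiles of all arrays and reports a summary per probe set, which compresses differences near background.

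The annotation gave 1 symbol to 21789 of 35556 probe sets, several to 1621 and none to 12146. Those with 1 symbol were used, and the RefSeq gene table (GRCm38.p6) held the Entrez ID of 21698. The probe set with the highest mean stood for each of 19938 genes, 999 of which had several, with no filter on dim genes. Groups followed the sample titles. One limma 3.58.1 fit (R 4.3.3) held 6 group means over 11 arrays, with 5 residual degrees of freedom, 5.39 prior degrees of freedom and two-sided tests. Benjamini-Hochberg adjustment ran over all 19938 genes, and the threshold for a call was an adjusted p of 0.05. The second Iftap probe set was tested in the same way over 21789 probe sets. Intervals are 95% and cover the spread between arrays. Values are means ± SD. The fit was tested on simulated data. Promoters are RefSeq sequences, matched by symbol for 4 of 4 genes. Other steps used Python 3.11.15, pandas 2.3.3 and, for the plots, matplotlib 3.10.9.

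The members, gene lists, markers and tests were chosen with earlier results of these data known, from general knowledge of the pathway. The genes named are all probe sets of the 4 members, called members of each list (or the one that moved most), the 3 nearest genes on each side of each locus, and the 5 genes most like each member, leaving out predicted genes and receptor segments. The replicate numbers were not used to pair the arrays in the main fit. Correlations of same-numbered deviations were over 0.1 in 4 of 10 pairs of populations (range -0.26 to 0.28). Pairs with HSC were negative and the other pairs positive. These correlations cannot settle whether the arrays were paired. Alternatives were 2 filters on dim genes, other normalizations, averaging the probe sets of a gene, a trended robust spread, array weights, a replicate block, fits of the compared groups alone and leaving out each array. Treating every probe set as a feature and the difference of the Iftap probe sets were added after the values had been seen.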

Additional observations from a re-analysis of the deposited data

Results flagged for a closer look

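The 7-transcript Iftap probe set was set apart because its change over the thymic step differed from that over the marrow step in a direct test. It differed by 0.03 in DN3 against ETP and by -1.28 in CLP against LMPP. The difference of these changes was 1.31 (95% interval 0.79 to 1.83, limma adjusted p = 0.0124), where 3.38% of all 21789 probe sets were called. It was 1.28 without DN3 replicate 1 (adjusted p = 0.0603) and 1.33 without DN3 replicate 2 (adjusted p = 0.0543), so the call rests on both DN3 arrays. The probe set read 8.21 and 8.16 in DN3, 7.89 and 8.42 in ETP, 8.05 and 7.80 in CLP, and 9.23 and 9.18 in LMPP. For the 1-transcript probe set of the same gene the difference of the changes was 0.17 (adjusted p = 0.941).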

How the results depend on the processing

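Of 2092 values computed under the alternatives, 1968 kept their direction and side of the threshold, 40 no longer passed, 27 newly passed, 13 changed sign and 44 counts of genes moved by over 1.5 times. With the mean of its probe sets Iftap differed by -0.74 in ETP against CLP and 0.74 in DN3 against ETP and no longer passed, and it changed sign in DN2 against ETP (-0.14) and DN3 against CLP (0.0090). In fits of the compared groups alone, which have fewer arrays, Dntt in ETP against CLP (-0.73), Rag1 in DN2 against ETP (1.16) and DN3 against DN2 (3.33), Rag2 in DN3 against DN2 (1.22), the 7-transcript Iftap probe set in ETP against LMPP (-1.05) and the difference of the Iftap probe sets in LMPP against HSC (4.68) no longer passed. With arrays centred on their medians Dntt in ETP against CLP was -0.72 and no longer passed, and the sign turned for Rag2 in DN3 against CLP (0.045) and Iftap in DN2 against LMPP (0.016). With quantiles normalized once more Rag1 passed for the thymic minus the marrow step (0.83), and the sign turned for Dntt in DN3 against LMPP (-0.023) and the 7-transcript probe set in DN3 against ETP (-0.013). With array weights Rag1 passed in DN3 against CLP (0.56, adjusted p = 0.0386) and for the thymic minus the marrow step (0.90, adjusted p = 0.0460). With the replicate block the same values passed (0.56, limma adjusted p = 0.0193, and 0.90, adjusted p = 0.0189). Whether the replicate numbers pair the arrays is not known. Under the block Iftap in DN2 against LMPP was 0.090, a turned sign. The block changed no other call of the 4 genes. The causes were not tested.

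Leaving out each array in turn gave, for values whose call or sign changed, 1.07 to 1.51 for Iftap in CLP against LMPP, -1.98 to -1.42 in ETP against CLP, 1.18 to 1.74 in DN3 against ETP and -0.11 to 0.45 for the thymic minus the marrow step, with -0.046 without LMPP replicate 1. The range was -0.84 to -0.62 for Dntt in ETP against CLP, 0.96 to 1.36 for Rag1 in DN2 against ETP, 0.44 to 0.68 in DN3 against CLP and 0.70 to 1.10 for the thymic minus the marrow step. It was 1.21 to 1.23 for Rag2 in DN3 against DN2 and -0.10 to 0.087 in DN3 against CLP. For the 7-transcript probe set it was -1.31 to -0.79 in ETP against LMPP, -0.031 to 0.49 in ETP against CLP, -0.23 to 0.29 in DN3 against ETP and 1.05 to 1.57 for the thymic minus the marrow step, and for the difference of the Iftap probe sets 4.15 to 5.20 in LMPP against HSC, 2.37 to 2.76 in CLP against LMPP and -2.02 to -1.84 in ETP against CLP. Iftap in DN2 against LMPP lay between -0.27 and 0.17.

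Counts of called genes moved more. Without single arrays they lay between 310 and 622 in LMPP against HSC (586 with all arrays), 98 and 257 in CLP against LMPP (228), 228 and 521 in ETP against LMPP (460), 248 and 543 in ETP against CLP (502), 92 and 200 in DN2 against ETP (199), 181 and 385 in DN3 against DN2 (358), 695 and 1426 in DN3 against ETP (1310), and 845 and 1882 in DN3 against CLP (1733). Under the other alternatives they lay between 137 and 704, 67 and 275, 195 and 578, 231 and 530, 0 and 236, 0 and 504, 1166 and 2030, and 1518 and 2183 in the same order of comparisons, the low ends coming from fits of the compared groups alone. Signal near background limits the low HSC levels of Rag2 and Iftap.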
